A study of Mus musculus with 48 samples.

Results

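Barhl1 or Barhl2 neurons are the neurons of the embryonic mouse hypothalamus in which a transcript of *Barhl1* or *Barhl2* was caught. A cell was a member when it held at least 1 UMI (a tag that marks 1 caught transcript molecule) of *Barhl1* or *Barhl2* and at least 3 of the 6 neuronal genes *Stmn2*, *Tubb3*, *Snap25*, *Syt1*, *Elavl4* and *Rbfox3*. By this rule 1256 of the 14121 cells were Barhl neurons, and the 9866 cells that held 3 or more of the neuronal genes but no UMI of either *Barhl* gene are called the other neurons. In mm10 with GENCODE vM21 genes, *Barhl1* lies on chromosome 2 (28907679 to 28916668, minus strand) and *Barhl2* on chromosome 5 (106452523 to 106458166, minus strand). The members were thus chosen by the UMI counts of these 8 genes, so the 8 genes were given no test, and the size of the group is a description.

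The study asked what loss of *Eed*, which encodes a core component of polycomb repressive complex 2 (PRC2), does to the cells of the hypothalamus. Single cells were sequenced at E18.5 from 6 control embryos (*Eed* fl/fl, 2 female and 4 male) and 9 Eed-cKO embryos (*Eed* fl/fl carrying 1 copy of *Sox1-Cre*, 5 female and 4 male), all with floxed *Eed* alleles and on a mixed B6:129S1 background. *Sox1-Cre* acts in the early neural tube, so *Eed* is removed across the central nervous system and not in these neurons alone. Each embryo gave 1 to 4 libraries, 48 in all, which were summed per embryo, so that the embryo is the replicate. By the first part of the library names, the control embryos came from 4 litters and the Eed-cKO embryos from 6, with no litter in both, so genotypes were compared between litters and embryos of 1 litter are not fully independent.

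*Barhl1* and *Barhl2* encode BarH-like homeodomain transcription factors, the vertebrate relatives of the Drosophila Bar genes. They are known from retinal ganglion cells, inner ear hair cells, rhombic lip derivatives such as cerebellar granule cells, and dorsal spinal commissural neurons, and in the forebrain they mark caudal territories that include the mammillary and subthalamic regions, where *Lmx1a* and *Foxa1* are also at work. PRC2 places the repressive histone mark H3K27me3, and the *Hox* clusters, which are silent in the forebrain and active in hindbrain and spinal cord, are among its best known targets.

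Of the Barhl neurons, 587 came from control and 669 from Eed-cKO embryos. They made up 9.84 ± 1.19% of the neurons of a control embryo (SD, n = 6, lowest 8.33%, highest 10.96%) and 12.1 ± 2.70% of those of an Eed-cKO embryo (n = 9, lowest 5.96%, highest 14.4%). The ranges overlap, and the lowest value belongs to Eed-cKO embryo 9, which holds only 9 Barhl neurons with 37727 UMIs. Barhl neurons were deeper than the other neurons: the control median was 6901 UMIs against 5101, and the Eed-cKO median 6981 against 4585, and deeper cells show a *Barhl* UMI more readily. When every cell was thinned to 2000 UMIs, the share was 6.03 ± 1.39% in control and 6.68 ± 1.65% in Eed-cKO. Among non-neural cells, which should lack these genes, 4 of 679 cells (0.589%, exact Clopper-Pearson 95% interval 0.161% to 1.501%, which covers counting error only) held a *Barhl* UMI at a median depth of 3618 UMIs, against 11.3% of neurons at 5040.5.

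The 2 genes were often found apart. In control, 163 members held *Barhl1* alone, 296 *Barhl2* alone and 128 both, and in Eed-cKO 228, 298 and 143. Members with *Barhl1* alone were 26.9 ± 3.79% of the Barhl neurons of a control embryo and 33.2 ± 6.90% of those of an Eed-cKO embryo. At the edge of the rule, 504 members held a single *Barhl* UMI, and *Lmx1a* was found in 32.3% of them, against 56.5% of the 497 members with 3 or more *Barhl* UMIs and 4.43% of the other neurons just outside the rule. The 88 members with exactly 3 neuronal genes held a median of 3318 UMIs, and the 36 *Barhl* cells with 2 neuronal genes, which fall just outside, held 2011.5.

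Several facts of the whole series bear on the comparisons. Library totals ran from 576432 to 4513505 UMIs, and 1 library of control embryo 5 held 1207 cells where the others held 163 to 465. It gave 111 of the 147 Barhl neurons of that embryo, at a lower depth (median of all its cells 2919 UMIs, against 4716.5 for the typical other library). Cell barcodes shared by more than 1 library numbered 101, and 18 members carried such a barcode. *Eed* itself lay at 30.5 ± 6.66 CPM (counts scaled to a common library total with TMM factors) in the Barhl neurons of control and 26.3 ± 7.91 CPM in those of Eed-cKO embryos (adjusted p = 0.50, edgeR). The floxed part covers exons 3 to 6, and UMIs are counted near the 3′ end of a transcript, so this level does not measure the deletion directly. In the other neurons of the same embryos, *Eed* was called lower in Eed-cKO (edgeR), 1 of 11 tested PRC2 genes on that side. The paper also reports *Eed* as downregulated over all its hypothalamic neural cells.

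The second measured fact concerns markers of other cell types inside the Barhl neurons. Of the members, 32 in control (5.45%) and 118 in Eed-cKO (17.6%) also held 3 or more markers of 1 other cell type, such as astrocytes or leptomeningeal cells. They were unevenly spread: 50 of the 106 members of Eed-cKO embryo 3 and 29 of the 84 members of Eed-cKO embryo 5 were of this kind. The other 7 Eed-cKO embryos held 0 to 12 each, and the 12 were among only 44 members of Eed-cKO embryo 6. Astrocyte markers account for most of the members with such markers (29 control and 111 Eed-cKO members), followed by pericyte and leptomeningeal markers (2 and 35). In the other neurons the share was 4.56% in control and 9.11% in Eed-cKO. Results on genotype are therefore also given without these cells and without Eed-cKO embryos 3 and 5. Eed-cKO embryo 6 stays in the second of these checks.

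**Figure D1:**
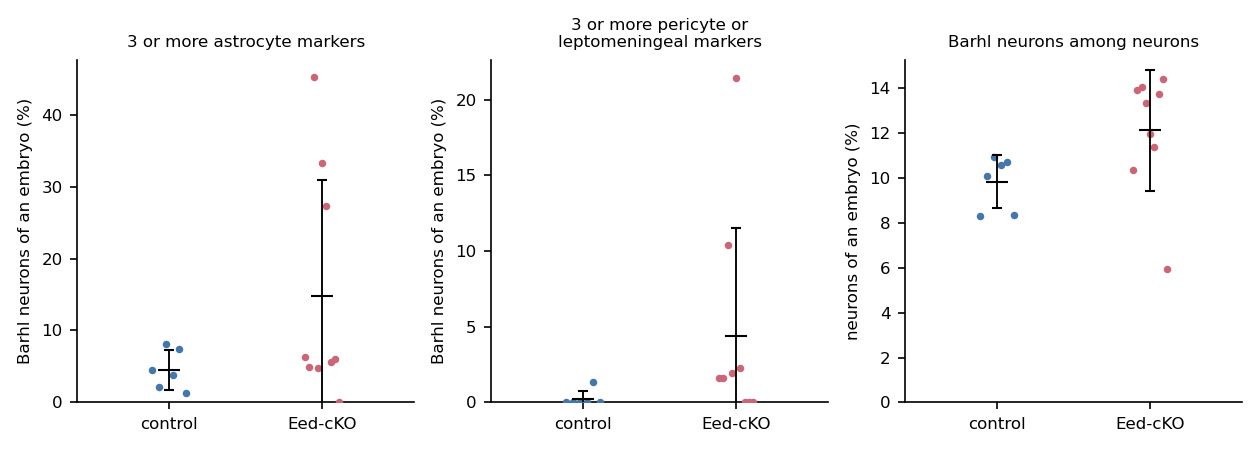
Share of the Barhl neurons of each embryo that hold 3 or more astrocyte markers (left) or 3 or more pericyte and leptomeningeal markers (middle), and share of each embryo's neurons that are Barhl neurons (right), in percent. Points are embryos (6 control, 9 Eed-cKO) and bars give the mean ± SD; a few Eed-cKO embryos stand far above the others in the left and middle panels, and in the right panel the genotypes overlap.

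The first comparison was between the Barhl neurons and the other neurons of the same control embryos. *Lmx1a*, *Foxa1* and the glutamate transporter gene *Slc17a6* were higher in the Barhl neurons, 8 of 10 tested genes of GABA neurons and 19 of 31 neuropeptide genes were lower, and factors of the caudal hypothalamus went both ways. Of 14498 genes tested, 274 (1.89%) were higher and 476 (3.28%) lower in the Barhl neurons (edgeR's quasi-likelihood test with the embryo as a block, n = 6, Benjamini-Hochberg adjusted p under 0.05). With RLE scaling in place of TMM, the share of higher calls moved from 36.5% to 54.1% of 785, so the balance of the directions rests on the scaling. Levels in this comparison are CPM on a scale common to Barhl and other neurons.

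*Lmx1a*, a LIM homeodomain factor of the floor plate and the caudal diencephalon, lay at 143 ± 31.9 CPM in the Barhl neurons of control embryos (lowest 87.4, highest 175) and at 15.5 ± 6.74 in the other neurons (log2 fold change 3.22 ± 0.12 SE). The forkhead factor *Foxa1* lay at 160 ± 63.7 against 18.9 ± 5.53 CPM (3.07 ± 0.13). In each of the 6 embryos both genes were higher in the Barhl neurons, and for each of them the ranges of the 2 cell sets do not overlap.

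Further genes were raised with them. The bHLH factor *Neurod6* lay at 118 ± 40.7 CPM against 16.7 ± 2.78 (2.81 ± 0.14), the nuclear receptor *Nr4a2* at 113 ± 38.8 against 34.95 ± 9.53 (1.74 ± 0.15), and *Ebf3*, a factor of the Collier/Olf/EBF family, at 307 ± 105 against 113 ± 21.9 (1.40 ± 0.09). The postsynaptic calmodulin-binding protein gene *Nrgn* lay at 123 ± 61.2 against 51.0 ± 22.4 CPM (1.33 ± 0.17), with ranges over embryos that overlap but a higher value in 6 of 6. Of 24 tested factors of the caudal hypothalamus and subthalamus, 8 were higher (among them *Lmx1a*, *Foxa1*, *Nr4a2*, *Foxp2*, *Irx3*, *Irx5* and *Irx6*) and 6 were lower (*Lhx9*, *Sim1*, *Lhx1*, *Nkx2-1*, *Emx2*, *Foxb1*), with a median log2 fold change of 0.69 over the list against -0.05 over all genes tested. *Foxb1*, the forkhead factor of mammillary neurons, lay at 25.5 ± 16.7 CPM in the Barhl neurons and at 111 ± 42.1 in the other neurons (-2.15 ± 0.17, lower in 6 of 6 embryos). The list is thus split, with members on both sides, and no cell type name beyond the rule is given to the Barhl neurons here.

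The 6 neuropeptide, receptor and calcium-binding genes that came with the group as markers were chosen with these data known, so their levels are a description with no test. *Calb2*, which encodes the calcium buffer calretinin, lay at 387 ± 79.9 CPM in the Barhl neurons of control embryos and 177 ± 46.1 in the other neurons, and was found in 56.2% and 27.8% of the cells. *Tac1*, the precursor of substance P, lay at 194 ± 93.7 CPM against 92.8 ± 35.5, and *Nts*, the neurotensin precursor, at 167 ± 96.0 against 81.1 ± 12.5, both higher in 5 of 6 embryos. *Adcyap1*, which encodes the peptide PACAP, lay at 57.6 ± 12.5 CPM against 29.0 ± 5.77, the serotonin receptor gene *Htr2c* at 44.9 ± 18.1 against 22.1 ± 6.37, and the Iroquois factor *Irx6* at 18.3 ± 5.37 against 1.305 ± 0.75. All 6 genes thus had a higher mean in the Barhl neurons, and *Irx6* differed by the largest factor, but none of them is found in every Barhl neuron: *Nts* was caught in 12.6% and *Irx6* in 8.35% of the control members.

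Transmitter genes differed between the cell sets. Of 4 tested genes of glutamate neurons, 1 was called, and it was higher. This gene, *Slc17a6*, the vesicular glutamate transporter of these regions, lay at 555 ± 57.0 CPM in the Barhl neurons and 356 ± 38.4 in the other neurons of control embryos (0.64 ± 0.05, higher in 6 of 6). Of 10 tested genes of GABA neurons, 8 were lower, among them *Gad1* and *Gad2*, which make GABA, its vesicular transporter *Slc32a1*, and the *Dlx* genes *Dlx1*, *Dlx2*, *Dlx5* and *Dlx6os1*. *Gad2* lay at 49.5 ± 15.03 CPM against 184 ± 19.4 (-1.94 ± 0.11) and *Dlx1* at 59.2 ± 30.9 against 203 ± 24.8 (-1.80 ± 0.13). The list's median log2 fold change was -1.51. The progenitor factor *Sox2* lay at 42.5 ± 16.7 against 152 ± 35.7 CPM (-1.82 ± 0.13).

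Most neuropeptides of the hypothalamus were low. Of 31 tested, 19 were lower in the Barhl neurons, and the 3 that were higher are the markers *Nts*, *Tac1* and *Adcyap1*, which are no independent finding. *Avp*, the vasopressin precursor, lay at 14.6 ± 23.2 CPM in the Barhl neurons against 740 ± 491 in the other neurons (-5.52 ± 0.24), and it was lower in 6 of 6 embryos although its level differs several-fold between embryos. Of 16 calcium-binding protein genes 14 were tested, and 6 were higher (*Calb2* among them, with *Vsnl1*, *Hpca*, *Hpcal1*, *Calm2* and *Necab1*) and 2 lower (*Calb1* and *Ncald*). Of 51 cadherin and axon guidance genes, 8 were higher, among them the netrin receptor *Dcc*, the slit receptors *Robo2* and *Robo3*, and *Ntn1*, and 5 were lower.

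**Figure D2:**
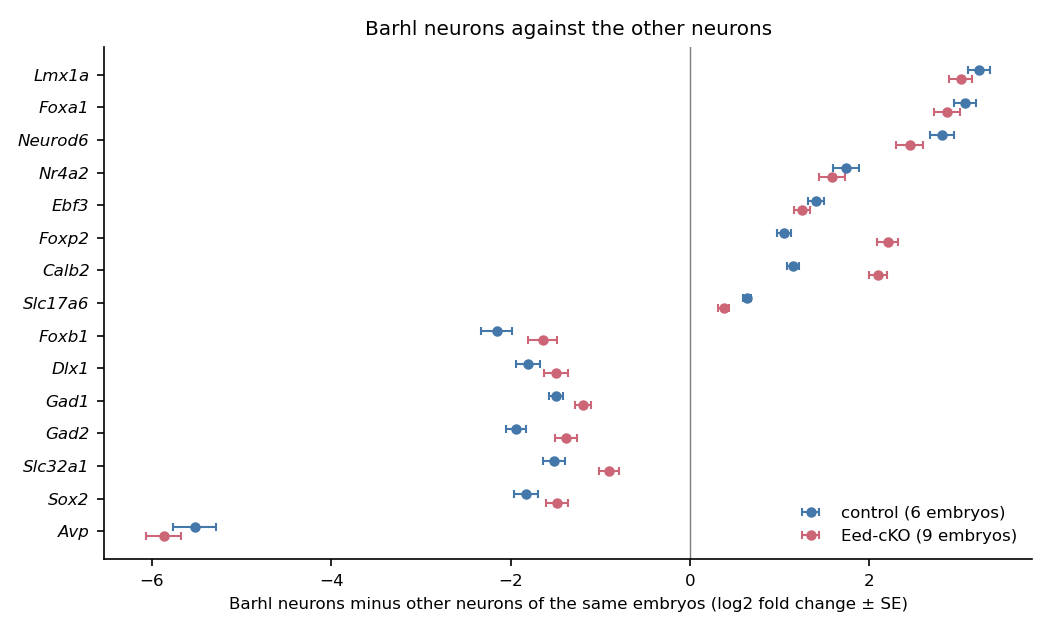
Log2 fold change of 15 genes between the Barhl neurons and the other neurons of the same embryos (x axis, positive values are higher in Barhl neurons), for control (blue, 6 embryos) and Eed-cKO (red, 9 embryos). Points are fitted values and bars their standard errors; transcription factors, *Calb2* and *Slc17a6* lie right of 0 in both genotypes and GABA neuron genes, *Sox2*, *Foxb1* and *Avp* left of it, and the genotypes stand apart most for *Foxp2* and *Calb2*.

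In Eed-cKO embryos, the same comparison called 382 genes (2.60%) higher and 550 (3.75%) lower among 14682 tested (n = 9 embryos). *Lmx1a* lay at 130 ± 53.9 CPM in the Barhl neurons against 17.4 ± 7.40 in the other neurons (3.02 ± 0.13) and *Foxa1* at 136 ± 66.4 against 21.3 ± 7.28 (2.87 ± 0.14), each higher in 9 of 9 embryos. Of the caudal factors, 10 of 24 were higher and 6 lower, and of the GABA neuron genes 8 of 10 were again lower. *Avp* was lower in the Barhl neurons of 7 of the 9 Eed-cKO embryos.

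Members with *Barhl1* alone and with *Barhl2* alone differed in what else they held. Shares were taken over the 14 embryos with at least 10 members of each kind, from both genotypes together. *Calb2* was found in 61.0 ± 16.2% of the members with *Barhl1* alone and 38.8 ± 8.76% of those with *Barhl2* alone. *Foxa1* was found in 38.8 ± 13.1% and 22.1 ± 5.88%, and *Lmx1a* in 45.3 ± 9.77% and 31.0 ± 9.78%. Each of these 3 shares was higher with *Barhl1* alone in 11 or 12 of the 14 embryos. *Tac1* was found in 31.7 ± 9.96% and 31.5 ± 8.01%, and *Slc32a1* in 21.8 ± 17.7% and 24.9 ± 10.7%. The contrast differed by genotype. Over all cells pooled, *Calb2* was found in 61.3% and 47.0% in control and in 64.5% and 32.6% in Eed-cKO. *Slc32a1* was found in 9.20% and 17.2% in control and in 28.1% and 31.9% in Eed-cKO. The SDs above therefore hold the genotypes too. The split uses the genes of the rule and is a description.

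The main comparison was between the genotypes within the Barhl neurons, on UMI counts summed over the members of each embryo. Patterning genes of the hindbrain and spinal cord, with the *Hox* genes at their head, appeared in the Eed-cKO Barhl neurons, immediate early genes rose, and *Alcam*, *Cdh2* and *Arl6ip1* were among the genes that fell, while the genes that mark the group did not pass the test. Of 12928 genes tested, 284 (2.20%) were higher and 118 (0.913%) lower in Eed-cKO (edgeR's quasi-likelihood test, n = 6 and 9 embryos, adjusted p under 0.05), and the p-values measure the spread between embryos. With litters in place of embryos as the samples, 274 genes were called, 264 of them among the 402. The embryos of the 2 genotypes did not overlap for 40 genes, with Eed-cKO on the higher side in 18 (0.139%) and on the lower side in 22 (0.170%). The 402 calls fell to 136 without the members that hold 3 or more markers of another cell type and to 151 without Eed-cKO embryos 3 and 5, and they were 674 without the large library of control embryo 5. Without control embryos 2, 4 or 6 or Eed-cKO embryo 3, left out singly, the calls numbered 204, 213, 229 and 223. In a sum over cells, fewer cells of a kind and less RNA per cell cannot be told apart.

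The group's own genes came first. Of the 6 markers outside the rule, 0 passed the test between genotypes with edgeR, 0 had an unadjusted p under 0.05, and DESeq2 and limma-voom also called 0. *Nts* lay between 54.8 and 319 CPM in the control embryos (median 136) and between 44.3 and 480 in the Eed-cKO embryos (median 193), with a log2 fold change of 0.55 ± 0.30 (adjusted p = 0.38). *Calb2* had a mean of 389 ± 81.2 CPM in control and 319 ± 112 in Eed-cKO (-0.20 ± 0.15), *Tac1* 195 ± 93.7 and 215 ± 132 (0.23 ± 0.27), *Adcyap1* 58.0 ± 12.6 and 71.5 ± 34.7 (0.08 ± 0.19), *Htr2c* 45.2 ± 18.1 and 62.9 ± 32.4 (0.37 ± 0.27) and *Irx6* 18.4 ± 5.45 and 16.1 ± 11.6 (-0.08 ± 0.31). The genotypes overlap in all 6. The share of Barhl neurons with a UMI of *Nts* was 11.9 ± 5.16% in control and 18.03 ± 5.98% in Eed-cKO embryos (exact two-sided permutation test, p = 0.064, adjusted p = 0.38 over the 6 marker shares, the lowest of them).

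The caudal transcription factors did not pass either. Of 23 tested, edgeR, DESeq2 and limma-voom each called 0, and 4 had an unadjusted p under 0.05 in edgeR (median log2 fold change 0.17 over the list, 0.0015 over all genes). *Lmx1a* lay at 144 ± 32.2 CPM in control and 131 ± 53.6 in Eed-cKO (-0.06 ± 0.17) and *Foxa1* at 160 ± 63.7 and 137 ± 66.0 (-0.17 ± 0.22). *Foxp1* was called higher in Eed-cKO without the members that hold markers of other cell types and likewise without Eed-cKO embryos 3 and 5. It was also called without the large library of control embryo 5 and with scaling by library size.

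*Hox* genes are the plainest change. A UMI of any *Hox* gene was found in 1 of 587 control Barhl neurons (0.170%, exact 95% interval 0.00431% to 0.945%) and in 259 of 669 Eed-cKO Barhl neurons (38.7%), with a mean of 36.7 ± 18.504% per embryo, a lowest value of 11.1%, a median of 27.6% and a highest of 63.1%. In the same Eed-cKO embryos, the share was 48.3% in the other neurons and 11.3% in the non-neural cells, at median depths of 4585 and 3618 UMIs. All 20 *Hox* genes tested were higher in Eed-cKO, and all 20 had 0 UMIs in the control Barhl neurons; those that passed the filter did so through the Eed-cKO embryos alone, so this count could not have been otherwise in direction.

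*Hoxc10* had 0 UMIs in the control embryos and 205 in the Eed-cKO embryos, between 12.0 and 70.4 CPM (median 34.1), at least 58.6-fold higher with control set at 3 UMIs over all its embryos. *Hoxc13* had 145 UMIs in Eed-cKO (11.3 to 48.9 CPM, at least 41.4-fold higher), *Hoxb13* 136 (0 to 43.0 CPM, at least 38.9-fold) and *Hoxa10* 70 (0 to 31.2 CPM, at least 20.003-fold). *Hoxc10* and *Hoxc13* were seen in 9 of 9 Eed-cKO embryos. All 4 belong to the posterior groups of their clusters, which are active in the caudal spinal cord.

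Transcription factors from a list drawn up for hindbrain and spinal cord rose as well. Of 21 tested, 12 were higher in the Eed-cKO Barhl neurons and 0 lower (*En1*, *En2*, *Tfap2a*, *Gata2*, *Gata3*, *Tal1*, *Pitx1*, *Tbx5*, *Tbx18*, *Hand2*, *Shox2* and *Vax2*). Not all 12 are factors of those regions. *Vax2* is a factor of the ventral forebrain and eye and *Hand2* one of limb and sympathetic neurons. *Pitx1*, *Tbx5* and *Tbx18* are likewise not particular to hindbrain and spinal cord. Of the 12, 8 had 0 UMIs in control and entered the test through Eed-cKO alone. *Tal1*, a bHLH factor that specifies GABA neurons in midbrain and spinal cord, lay between 0 and 4.98 CPM in the control embryos (median 1.11) and between 42.6 and 111 in the Eed-cKO embryos (median 52.9). The highest control embryo thus stood below the lowest Eed-cKO embryo (4.90 ± 0.37, adjusted p = 7.0e-11). *Tal1* lies on chromosome 4 (115056426 to 115071755, plus strand, GRCm38/mm10, GENCODE vM21). *Gata3*, its partner in the same neurons, had 187 UMIs, spread over 8 of the 9 Eed-cKO embryos, and 0 in the control embryos (highest 52.5 CPM, at least 53.4-fold higher), and *Vax2* had 0 and 110 (at least 31.4-fold). *Shox2*, a paired-like homeodomain factor, lay at 9.98 ± 4.44 CPM in control and 39.1 ± 26.3 in Eed-cKO (2.02 ± 0.34). *Tal1* and *Shox2*, which had UMIs in control, kept their call without the members with markers of other types and without Eed-cKO embryos 3 and 5, and *Shox2* lost it in thinned cells.

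Because *Barhl* genes also mark the rhombic lip and dorsal spinal cord, 19 factors of those lineages were looked up. Of 17 tested, 3 were higher in Eed-cKO: the TALE homeodomain factor *Meis1* (5.602 ± 5.11 to 20.8 ± 8.22 CPM, 1.97 ± 0.41), *Mab21l2* (5.81 ± 4.78 to 20.2 ± 10.4, 1.91 ± 0.42) and the POU factor *Pou4f1* (1 UMI in control and 24 in Eed-cKO, 3.62 ± 1.01). The genotypes overlap in each of them. In the other neurons, which hold no *Barhl* UMI, 6 of 18 tested were higher in Eed-cKO, and these 3 genes were among them. The difference of effects between the 2 cell sets, tested below, did not pass for any of the 3. *Meis1* kept its call without Eed-cKO embryos 3 and 5, where *Mab21l2* and *Pou4f1* lost theirs, and *Pou4f1* also lost it in several fits that leave out 1 embryo. Among members with 2 or more *Barhl* UMIs, *Meis1* lost its call.

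Cell cycle inhibitors of the *Ink4* locus appeared at low levels. *Cdkn2b* had 0 UMIs in the control Barhl neurons and 53 in Eed-cKO (median 10.2 CPM, at least 15.1-fold higher), and *Cdkn2a* had 0 and 30 (median 3.82 CPM, at least 8.57-fold higher). They were the 2 called of 7 cyclin-dependent kinase inhibitors. With 0 UMIs in control both entered the test through Eed-cKO alone, so their direction was fixed. In the other neurons 4 of 7 were higher in Eed-cKO: *Cdkn2a*, *Cdkn2b*, *Cdkn2c* and *Cdkn1b*. Of 10 tested PRC2 genes edgeR, DESeq2 and limma-voom called 0 in the Barhl neurons, with 0 at an unadjusted p under 0.05 in edgeR.

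Immediate early genes, which neurons transcribe soon after activity or stress, were higher in Eed-cKO in 14 of 16 tested, with a median log2 fold change of 1.48. *Fosb* lay between 11.6 and 33.2 CPM in the control embryos (median 26.5) and between 54.8 and 159 in the Eed-cKO embryos (median 93.8), so the genotypes do not overlap (1.93 ± 0.23). *Npas4*, an activity-regulated bHLH-PAS factor, lay at 11.9 to 48.2 CPM (median 31.3) and 56.7 to 165 (median 122), again with no overlap (1.68 ± 0.22, adjusted p = 6.5e-06). *Jun* also separated the genotypes (96.7 ± 12.4 and 194 ± 80.9 CPM, 1.02 ± 0.19), while *Fos* (145 ± 42.4 and 374 ± 159, 1.34 ± 0.22) and *Dusp1* (58.3 ± 11.8 and 117 ± 30.8, 1.03 ± 0.17) overlapped at the edge. The summed level of the list was 586 ± 91.4 CPM in control and 1449 ± 553 in Eed-cKO Barhl neurons, and 737 ± 138 and 1381 ± 288 in the other neurons, where 15 of 16 rose. Since dissociation alone can induce these genes and no litter holds both genotypes, the part of handling in this rise was not tested. Without the members with markers of other types 10 of 16 were higher, and without Eed-cKO embryos 3 and 5 it was 7 of 16; *Fosb*, *Npas4*, *Jun*, *Fos* and *Dusp1* were in both.

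**Figure D3:**
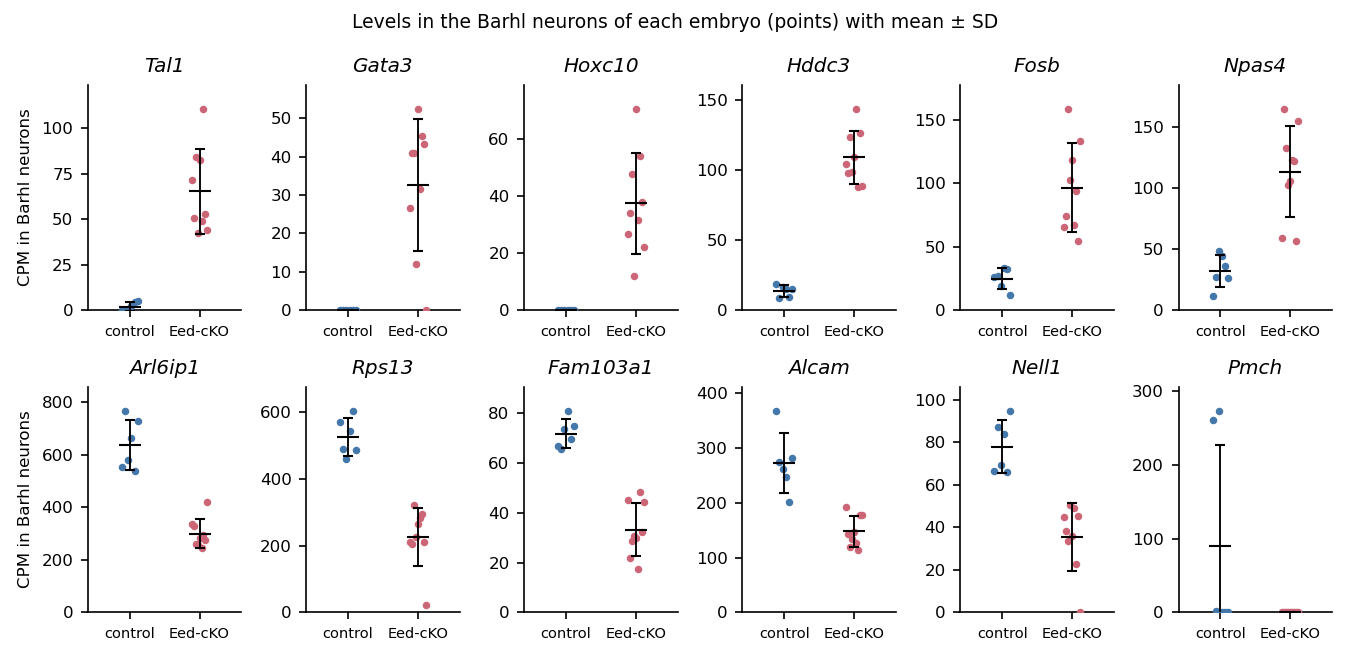
Levels of 12 genes in the Barhl neurons of each embryo, in CPM (y axis, a separate linear scale from 0 in each panel), for 6 control (blue) and 9 Eed-cKO (red) embryos, with bars for the mean ± SD. The upper row shows genes that rose and the lower row genes that fell in Eed-cKO; all but *Gata3* in the upper row and all but *Pmch* in the lower row do not overlap between genotypes, and *Pmch* is high in 2 control embryos only.

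Other genes with no overlap between genotypes included 3 of the largest rises outside these lists. *Hddc3*, a phosphohydrolase gene, lay between 8.38 and 18.999 CPM in control (median 15.2) and between 88.1 and 144 in Eed-cKO (median 104), the smallest p of all genes (2.98 ± 0.18, adjusted p = 2.4e-13). The matricellular protein gene *Cyr61* lay at 11.3 ± 8.55 and 50.03 ± 22.99 CPM (2.28 ± 0.32), and the collagen gene *Col9a3* at 20.6 ± 6.10 and 66.9 ± 20.3 (1.62 ± 0.22). *Rem2*, a small GTPase that is regulated by activity, rose by less (28.9 ± 8.03 and 56.4 ± 9.63 CPM, 0.92 ± 0.18).

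The 8 largest falls without overlap include a gene of adhesion and a secreted protein gene. *Arl6ip1*, an endoplasmic reticulum shaping protein gene, lay between 536 and 766 CPM in the control embryos (median 620) and between 246 and 421 in the Eed-cKO embryos (median 282), a log2 fold change of -1.14 ± 0.10 (adjusted p = 7.7e-09). It lies on chromosome 7, as *Eed* does, at 118118891 to 118129662 on the minus strand of mm10. *Alcam*, an immunoglobulin-family adhesion molecule of growing axons, lay between 202 and 368 CPM (median 269) and between 114 and 193 (median 143), with -0.89 ± 0.13. In both the lowest control embryo stood above the highest Eed-cKO embryo.

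*Nell1*, which encodes a secreted thrombospondin-like protein, fell from 77.9 ± 12.3 to 35.6 ± 15.97 CPM (-0.98 ± 0.17), *Brinp1*, a neural gene inducible by bone morphogenetic protein and retinoic acid, from 82.7 ± 12.0 to 41.5 ± 18.3 (-0.85 ± 0.16), and *Fam103a1*, an activator of mRNA cap methylation, from 71.7 ± 5.77 to 33.1 ± 10.6 (-1.20 ± 0.17). The ribosomal protein genes *Rps13* (526.3 ± 56.1 to 227 ± 87.6 CPM, -1.10 ± 0.13) and *Rps15a* (414 ± 44.3 to 221 ± 37.3, -0.85 ± 0.10) also fell, though such genes have near-identical pseudogene copies and their counts are uncertain. Many of the genes given in this report overlap a gene on the other strand (for *Hddc3*, *Man2a2*). Among them are *Hddc3*, *Col9a3*, *Jun*, *Nell1*, *Mab21l2*, *Shox2* and *Pmch*. Further ones are *Mab21l1*, *Dusp1*, *Syn2*, *Col4a1*, *Vax2*, *Nfix*, *Dlx1*, *Gata3* and *Eed*. Whether counting used the strand is not given in the sources used here, so the values of all such genes are uncertain to that extent. The 16 non-overlapping genes named by the rule (8 higher, 8 lower) kept their call without the members with markers of other types and without Eed-cKO embryos 3 and 5. In thinned cells several of them lost it, among them *Alcam*, *Col9a3*, *Fosb*, *Jun*, *Nell1* and *Rem2*.

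Of 50 tested cadherin and axon guidance genes, 4 were lower (median log2 fold change -0.11, 17 at an unadjusted p under 0.05): *Cdh2*, which encodes N-cadherin (137 ± 23.3 to 75.6 ± 11.6 CPM, -0.79 ± 0.13, no overlap), the ephrin receptor *Epha5* (133 ± 38.4 to 71.6 ± 27.6, -0.83 ± 0.18), *Cdh10* (37.3 ± 13.03 to 20.7 ± 7.92, -0.86 ± 0.24) and *Cdh13* (104 ± 22.2 to 75.4 ± 27.6, -0.58 ± 0.17). *Cdh2* and *Epha5* kept their call with RLE scaling and without the members that hold other markers, and *Cdh10* and *Cdh13* did not, and lost it also with DESeq2, with limma-voom and with litters as samples. *Alcam*, *Cdh2* and *Epha5* lost the call in thinned cells, and *Epha5* also among members with 2 or more *Barhl* UMIs. Genes of synapses and of maturation showed little: 1 of 31 was lower, *Syn2* (214 ± 28.2 to 162 ± 21.5 CPM, -0.39 ± 0.11), and that call was lost with RLE scaling, with DESeq2, without the members that hold other markers and without Eed-cKO embryos 3 and 5. Of 14 tested calcium-binding genes, *Vsnl1* was lower (458 ± 74.5 to 322 ± 52.7, -0.48 ± 0.11), and of 22 immature neuron genes *Igfbpl1* was higher (42.8 ± 13.1 to 74.3 ± 34.2, 0.98 ± 0.21). Neither *Vsnl1* nor *Igfbpl1* was called without Eed-cKO embryos 3 and 5, and *Vsnl1* was also lost without the members that hold other markers. Of 13 tested amine receptor genes and 13 peptide processing genes, edgeR, DESeq2 and limma-voom called 0, with 1 and 2 at an unadjusted p under 0.05 in edgeR.

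Among 25 tested neuropeptide genes, 5 were higher and 2 lower in Eed-cKO. *Pmch*, the precursor of melanin-concentrating hormone, had 373 UMIs in control Barhl neurons and 1 in Eed-cKO, but it was high in only 2 of the 6 control embryos (median 1.39, highest 273 CPM), so the difference rests on these 2 embryos. *Crh*, which encodes corticotropin-releasing hormone, lay between 4.62 and 36.5 CPM in control (median 14.6) and between 0 and 12.0 in Eed-cKO (median 0), with -2.33 ± 0.52, and kept its call without the members with other markers and without Eed-cKO embryos 3 and 5. *Crh* lost the call in thinned cells, with 5 or more neuronal genes, and in limma-voom with libraries as samples and a minimum fold. The genes that were higher sat at low levels or in few embryos: *Nmu* had 2 and 75 UMIs with a median of 4.10 CPM and a highest value of 66.9 in Eed-cKO, *Npw* 2 and 44 UMIs with a median of 5.67 CPM, *Pomc* a median of 9.32 and a highest value of 193 CPM, *Cartpt* a median of 20.5 and a highest of 147, and *Pnoc* rose from 28.8 ± 7.57 to 48.5 ± 17.5 CPM (0.85 ± 0.22). Of these 5, *Npw* alone was also called without Eed-cKO embryos 3 and 5 and by DESeq2, which gave an adjusted p for 21 of the 25 genes, and limma-voom called none of the 5. Of 25 neuropeptide receptor genes, *Npy2r* was lower (8.99 ± 5.28 to 2.21 ± 2.14 CPM, -1.94 ± 0.53), a call lost without the members with other markers.

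Genes of other cell types moved in the same direction as the cells described above. Of the pericyte and leptomeningeal markers, 4 of 6 were higher in the Eed-cKO Barhl neurons (*Col1a1*, *Col1a2*, *Dcn* and *Kcnj8*), and the summed level of the 8 markers was 3.21 to 14.8 CPM in the control embryos and 0 to 393 in the Eed-cKO embryos (median 81.3), with *Col1a1*, *Dcn* and *Lum* at 0 UMIs in control. In the other neurons it was 8.01 to 46.0 and 26.7 to 208. With 0 UMIs in the control Barhl neurons, *Col1a1* and *Dcn* entered the test through Eed-cKO alone, so their direction was fixed. *Dcn*, a proteoglycan gene of connective tissue, had 0 and 204 UMIs but a median of only 3.51 CPM over the Eed-cKO embryos, and *Col1a2* had 8 and 335 with a highest value of 223 CPM. *Kcnj8*, a potassium channel gene of pericytes, had 1 and 24 UMIs. *Col1a2* lost its call without the members that hold other markers, and *Kcnj8* when any 1 of 8 embryos was left out and with DESeq2. *Col1a1* also lost its call with DESeq2, and limma-voom called none of the 4.

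The astrocyte markers summed to 150 to 548 CPM in control and 79.5 to 959 in Eed-cKO Barhl neurons, and 1 of 9 was called, the connexin gene *Gja1* (6.89 ± 6.33 to 26.8 ± 24.04 CPM, 2.23 ± 0.50). Of the other lists, 1 of 5 ependymal and tanycyte markers (*Crym*, 5.42 ± 2.64 to 26.8 ± 29.1) and 1 of 5 progenitor markers (*Nes*, 4.46 ± 5.24 to 13.8 ± 10.0) were also called. *Crym* and *Nes* lost the call without the members that hold other markers, *Crym*, *Gja1* and *Nes* without Eed-cKO embryos 3 and 5, and *Nes* also with litters as samples and when any 1 of 8 embryos was left out. Of 5 oligodendrocyte precursor and 6 endothelial markers edgeR, DESeq2 (with an adjusted p for 5 of the 6) and limma-voom called 0, with 3 of each at an unadjusted p under 0.05 in edgeR. Microglia markers did not reach the test, with 1.08 to 6.43 CPM in control and 0 to 84.4 in Eed-cKO. The part of such transcripts in the 402 calls was not tested beyond the counts without these cells; the *Tal1* and *Arl6ip1* changes were called without them.

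The transmitter phenotype was then counted per cell. Of the Barhl neurons of a control embryo, 69.9 ± 8.59% held *Slc17a6* without *Slc32a1* (lowest 56.5%, median 73.6%, highest 77.4%), and in Eed-cKO it was 57.8 ± 8.96% (38.7%, 60.2%, 66.7%). Both transporters were found in 5.59 ± 4.15% of the control members (1.52%, 4.68%, 13.6%) and in 20.7 ± 9.52% of the Eed-cKO members (11.1%, 16.3%, 36.8%). Except for control embryo 5, every control embryo lay below every Eed-cKO embryo in the share with both.

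The share with both rose by 15.1 percentage points (exact two-sided test, permuting embryos, p = 0.0026, adjusted p = 0.010 over the 4 classes; the smallest p possible is 0.0002), and the share with *Slc17a6* alone fell by 12.2 points (p = 0.020, adjusted p = 0.040). The second call was lost when control embryo 2, 3, 4 or 6 or Eed-cKO embryo 3, 4, 5 or 8 was left out, with falls between 9.77 and 12.2 points, and it was also lost without Eed-cKO embryos 3 and 5 together (8.14 points) and without the members that hold other markers (6.99 points). *Slc32a1* alone was found in 7.57 ± 3.01% and 4.43 ± 3.83% (p = 0.12, adjusted p = 0.15), and neither in 16.9 ± 5.41% and 17.1 ± 5.54% (p = 0.94). In non-neural cells, which should lack both, *Slc32a1* was found in 3.05% in control and 1.199% in Eed-cKO, *Slc17a6* in 8.02% and 7.91%, and both in 0.382% and 0.480%, at median depths of 3631.5 and 3618 UMIs.

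A share of cells depends on depth and on what else was caught with a cell. With every cell thinned to 2000 UMIs, the share with both differed by 2.46 points (adjusted p = 0.068), and among members with 2 or more *Barhl* UMIs by 9.34 points (adjusted p = 0.23). With 2 or more UMIs asked of each transporter, the shares were 1.55% and 7.70%, a difference of 6.15 points (adjusted p = 0.042). Without the members that hold markers of other cell types the shares with both, at 1 UMI or more, were 5.35% and 17.1% (adjusted p = 0.0048). The 2 highest Eed-cKO embryos, with 36.8% and 35.7%, are embryos 3 and 5, which hold most of those members. In the summed counts, *Slc32a1* lay at 41.2 ± 15.9 CPM in control and 59.2 ± 24.7 in Eed-cKO (0.63 ± 0.21, adjusted p = 0.11) and *Slc17a6* at 558 ± 57.2 and 495 ± 100.1 (-0.19 ± 0.12, adjusted p = 0.47), so neither level passed the test across all genes (*Slc32a1* did without the large library of control embryo 5). Of 4 tested genes of glutamate neurons and 9 of GABA neurons, edgeR, DESeq2 and limma-voom called 0 between genotypes, with 1 and 3 at an unadjusted p under 0.05 in edgeR. In the other neurons the share with both was 4.84 ± 2.12% in control and 20.9 ± 4.84% in Eed-cKO, values close to those of the Barhl neurons; no difference between the 2 cell sets was tested for these shares.

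**Figure D4:**
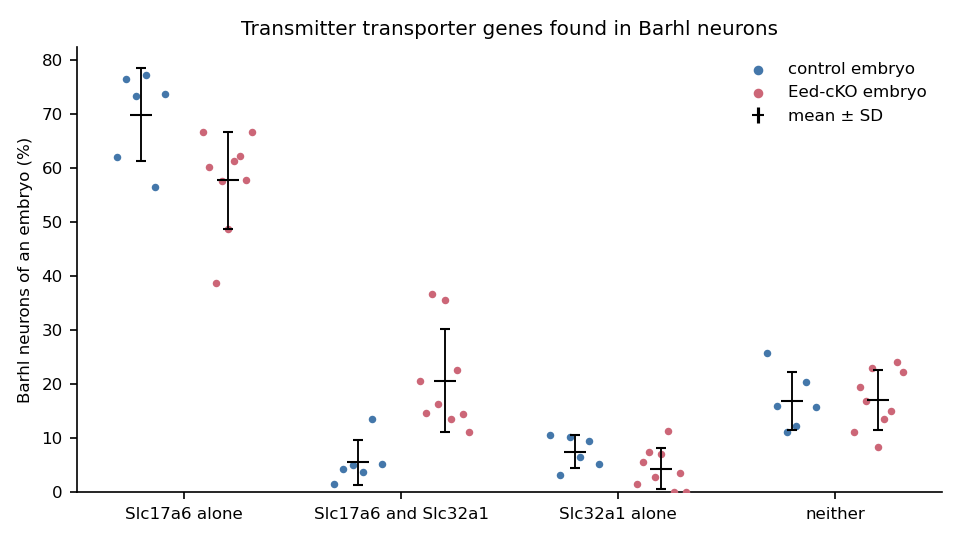
Share of the Barhl neurons of each embryo (y axis, percent) that held UMIs of *Slc17a6* alone, of *Slc17a6* and *Slc32a1*, of *Slc32a1* alone or of neither, for 6 control (blue) and 9 Eed-cKO (red) embryos, with bars for the mean ± SD. The share with both genes is 1.52% to 13.6% in control and 11.1% to 36.8% in Eed-cKO.

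To ask which changes are particular to the Barhl neurons, the effect of genotype in them was set against that in the other neurons of the same embryos, as an interaction with the embryo as a block. Of 15565 genes tested, the effect was more positive in the Barhl neurons for 36 (0.231%) and more negative for 18 (0.116%), where 1231 genes rose and 1047 fell among 15363 tested in the other neurons alone. Among the 16 non-overlapping genes, the difference of effects on the log2 scale was 0.22 for *Hddc3*, 0.31 for *Fosb*, -0.05 for *Arl6ip1* and 0.17 for *Alcam*, and 0 of the 16 passed with edgeR (2 of them, *Npas4* among these, had an unadjusted p under 0.05). A missed threshold does not show that effects are equal. Among the non-overlapping genes, *Npas4* came closest (0.77 ± 0.20, adjusted p = 0.094).

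Of the markers, 2 fell in the other neurons of Eed-cKO embryos and had no called change in the Barhl neurons, and the difference of effects passed for both. *Nts* lay at 167 CPM in the Barhl neurons of control and 233 in those of Eed-cKO embryos, and at 81.1 and 34.3 in the other neurons, where it fell by 1.19 on the log2 scale (adjusted p = 2.7e-06). The difference of effects was 1.74 ± 0.21 (adjusted p = 2.6e-07), the smallest p of the comparison. *Calb2* lay at 387 and 317 CPM in the Barhl neurons and at 177 and 81.1 in the other neurons (difference 0.96 ± 0.14, adjusted p = 4.7e-06). The forkhead factor *Foxp2*, which marks several sets of projection neurons, lay at 301 and 346 CPM against 147 and 70.1 (1.17 ± 0.16, adjusted p = 2.1e-06). In each of the 3 the gap between Barhl and other neurons was wider in Eed-cKO than in control. *Foxp2* lost its call in thinned cells, where *Nts* and *Calb2* kept theirs. *Nts* and *Calb2* were among the markers proposed with these data known.

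On the opposite side stood factors whose effect was more positive in the other neurons. *Tfap2b*, an AP-2 factor of hindbrain and spinal neurons, lay at 3.47 CPM in the other neurons of control and 104 in those of Eed-cKO embryos, whereas in the Barhl neurons it was 24.3 and 47.4 CPM (difference -3.66 ± 0.45, adjusted p = 2.7e-07). *Mab21l1* lay at 8.13 and 37.4 CPM in the other neurons and at 37.9 and 45.8 in the Barhl neurons (-1.78 ± 0.24). Of the nuclear factor I genes, which act in late neuronal and glial programs, *Nfia* lay at 74.9 and 132 CPM in the other neurons against 155 and 140 in the Barhl neurons (-1.17 ± 0.15), *Nfix* at 85.1 and 148 against 154 and 144 (-0.99 ± 0.15), and *Nfib* at 222 and 335 against 261 and 256 (-0.82 ± 0.13). In each of the 5 genes the level in control was higher in the Barhl neurons than in the other neurons. In thinned cells *Nfia*, *Nfix*, *Nfib* and *Tfap2b* lost the call, and *Nfib* and *Tfap2b* also with DESeq2. Astrocyte markers moved with these genes: 8 of 10 tested were higher in the Eed-cKO than in the control other neurons (median log2 fold change 1.13), against 1 of 9 in the Barhl neurons, and *Slc1a3* among them had a difference of effects of -1.26 (adjusted p = 0.017). Without the neurons of both sets that hold 3 or more markers of another cell type, all 5 genes kept the call. The part of cells with fewer such markers was not tested.

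*Gata3* behaved differently. It had 0 UMIs in the Barhl neurons of control embryos but 10.9 ± 7.28 CPM in the other neurons, and in Eed-cKO it reached 32.3 and 67.5 CPM, so the relative rise was larger in the Barhl neurons (adjusted p = 0.00038) although the level stayed lower there. *Col4a1* (no member of a list), a basement membrane collagen gene of vessels, lay at 22.98 and 66.8 CPM in the Barhl neurons against 46.8 and 59.6 in the other neurons (1.19 ± 0.20, adjusted p = 0.00038), and its call was lost without the members with markers of other cell types. That call was also lost with 5 or more neuronal genes and in thinned cells. With DESeq2, 18 genes were called, and *Calb2*, *Foxp2*, *Nfib* and *Tfap2b* were not among them. For the 32 *Hox* genes tested the interaction called 0 with edgeR, with 0 at an unadjusted p under 0.05, and 0 with DESeq2, in a test that has little to work on where both control sets are at 0, while the direct comparison within Eed-cKO found 13 of 32 lower in the Barhl neurons than in the other neurons of the same embryos, with a median log2 fold change of -0.97. *Hoxc10*, for example, lay at 37.0 CPM against 80.2, and *Hoxa10* at 12.96 against 36.6. Of 33 tested factors of the hindbrain and spinal list, 10 were lower and 0 higher in the Eed-cKO Barhl neurons than in the other neurons. Among the 10 were *Tfap2b*, *Gata3*, *Tal1* and *Vax2*.

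**Figure D5:**
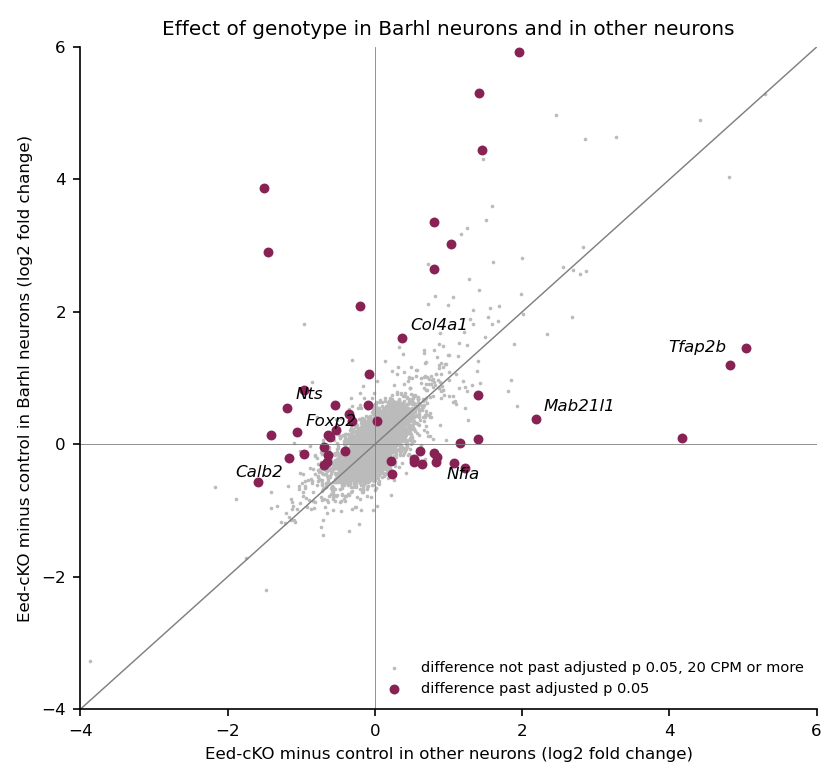
Log2 fold change between Eed-cKO and control in the other neurons (x axis) and in the Barhl neurons (y axis), with the diagonal where both are equal. Large points are genes whose difference of effects passed an adjusted p of 0.05 (49 of 54 lie in the plot, since 3 had 0 UMIs in a control set and 2 fall outside the axes), and small points are 8242 other genes with at least 20 CPM in one of the 4 means; *Nts*, *Calb2* and *Foxp2* lie left of 0 on the x axis and close to 0 on the y axis, and *Tfap2b*, *Mab21l1* and *Nfia* right of the diagonal.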

How the data were processed

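Hypothalamic cells of E18.5 embryos were captured in droplets (ddSEQ) and made into 48 libraries (22 control, 26 Eed-cKO). The authors made UMI counts with the SureCell application of the sequencer's maker, removed cells of low depth and deposited raw UMI counts (16510 genes by 14121 cells). The submitters' processing notes name STAR 2.5.2b, SAMtools 1.3 and mm10, and whether strand was used in counting is not given in the sources used here. No per-sample column was left unused. Embryos were read from the library titles and litters from the library names. UMIs were counted without correction for free RNA, and no cell was removed beyond the deposited tables.

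UMIs of Barhl neurons and of other neurons were summed per embryo. Genes with at least 15 UMIs in all and 1 UMI in at least 5 sums were tested with edgeR 4.0.16 (quasi-likelihood, TMM) in R 4.3.3, with Benjamini-Hochberg adjustment over all genes tested, and standard errors were taken from the fold change and its F value. Comparisons of the 2 cell sets held the embryo as a block. Shares per embryo were compared by exact two-sided permutation tests over all splits of the embryos, computed with numpy 2.4.6. Benjamini-Hochberg adjustment ran over the 4 transmitter classes or the 6 markers. Exact 95% intervals of pooled shares of cells came from scipy 1.17.1. A fold against a control of 0 UMIs was bounded with 3 UMIs over the group, and fitted folds of such genes depend on the prior count. Alternatives were RLE or library-size scaling, other filters, DESeq2 1.42.0, limma 3.58.1 (voom), stricter membership, thinning to 2000 UMIs per cell (33 members were shallower), removal of the 6% highest Scrublet scores per library (scanpy 1.11.5; 848 cells, 89 members), and leaving out each embryo. Tests without the large control library, without members with 3 or more markers of another cell type and without Eed-cKO embryos 3 and 5 were chosen after seeing the data. On simulated counts the genotype test recovered 197 of 200 changed genes among 12964, the interaction 163 of 199 among 15553 and the blocked test in control 189 of 200 among 14537.

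The members and gene lists were chosen with earlier results of these data known. Named genes were the 6 markers; the 8 largest rises and 8 largest falls between genotypes among called genes without overlap and with at least 50 CPM, *Hox* genes apart; up to 4 called genes with the smallest p of each list, and *Eed*; the 8 largest rises and 5 largest falls against the other neurons with at least 100 CPM and 1 direction in every control embryo; and the 5 smallest p in each direction of the interaction. Further genes given in the text were chosen after their values were seen. Some genes that these rules name are not reported here.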

Additional observations from a re-analysis of the deposited data

Results flagged for a closer look

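In 20 of 162 groups of embryos (12.3%), 1 embryo stood apart from the rest of its genotype by Dixon's criterion. The criterion's rate of about 1 in 20 holds for normally distributed values. It is no baseline for levels near 0 and shares bounded at 0, so the 12.3% is a description. In control embryo 5, which holds the large library, these were the share of Barhl neurons with both transporters (13.6%), *Avp* (62.4 CPM), *Col4a1* (43.9 CPM) and *Kcnj8* (1.16 CPM, the others at 0). In control embryo 2 they were *Vsnl1* (605 CPM) and *Cdh10* (62.0 CPM), and in control embryo 1 *Pou4f1* (2.38 CPM, the others at 0). Eed-cKO embryo 9, with 9 Barhl neurons, gave 8 of the 20: the share of neurons that are Barhl neurons (5.96%), the share with *Tac1* (0%), and the levels of *Adcyap1* (155 CPM), *Rps13* (22.2), *Brinp1* (0), *Eed* (44.3), *Neurod6* (443) and *Nfia* (288). The other 5 were *Pmch* in Eed-cKO embryo 3 (0.955 CPM, the others at 0), *Nmu* in embryo 5 (66.9), *Crh* in embryo 4 (12.0), *Col1a2* in embryo 1 (223) and *Mab21l1* in embryo 7 (111).

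For 24 genes named in the report or held in its lists, the effect of genotype on the log2 scale differed between Barhl neurons and other neurons by the interaction test. It was more positive in the Barhl neurons for *Nts* (1.74), *Calb2* (0.965), *Foxp2* (1.18), *Foxp1* (0.620), *Gata3* (6.74, a fitted value with control at 0), *Col4a1* (1.19), *Lhx9* (1.54), *Robo2* (0.765), *Scg2* (0.469), *Necab1* (0.879), *Cplx2* (0.674), *Tmsb4x* (0.300), *Vip* (4.79) and *Hcrt* (4.81). It was more negative for *Tfap2b* (-3.66), *Cga* (-3.95), *Mab21l1* (-1.78), *Tbx3* (-1.37), *Slc1a3* (-1.25), *Nfia* (-1.17), *Neurod1* (-1.01), *Nfix* (-0.990), *Nfib* (-0.822) and *Nhlh2* (-0.730). *Vip* and *Hcrt* were called lower in the Barhl neurons than in the other neurons of control embryos. The 3 pituitary markers, *Cga* among them, summed to only 0.276 CPM in the other neurons of control embryos.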

How the results depend on the processing

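Between genotypes, the 402 calls became 218 with edgeR's own filter, 252 with 5 or more neuronal genes, 32 in thinned cells, 266 with limma-voom, 191 with libraries as samples and a minimum fold, 674 without the large control library, 136 without the members that hold other markers and 151 without Eed-cKO embryos 3 and 5, and 204 to 580 with 1 embryo left out. Against the other neurons, the 750 calls in control became 428 with DESeq2, 462 with 5 or more neuronal genes and 190 in thinned cells, and the 932 in Eed-cKO became 273 in thinned cells. Without the embryo as a block they were 292 and 495. No embryo is paired across genotypes. The 54 interaction calls became 90 without a filter, 33 with edgeR's filter, 18 with DESeq2, 35 with 5 or more neuronal genes and 6 in thinned cells.

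Of 2 transmitter classes called, 0 were called with 2 or more *Barhl* UMIs and in thinned cells, 1 with 5 or more neuronal genes, without high doublet scores, without Eed-cKO embryos 3 and 5 and with 2 UMIs per positive cell, and 1 to 3 with 1 embryo left out. In percentage points, *Slc17a6* alone changed by -5.25 (2 *Barhl* UMIs), -11.5 (5 neuronal genes), -6.26 (thinned), -11.9 (doublet scores), -6.99 (without other markers), -8.14 (without embryos 3 and 5), -4.97 (2 UMIs per positive cell) and -14.9 to -9.77 (1 embryo left out), and its call was lost in the first 7. Both transporters changed by 9.34 (2 *Barhl* UMIs) and 2.46 (thinned), with the call lost. With 2 UMIs per positive cell it was 6.15, still called. *Slc32a1* alone turned to 1.55 when thinned and passed the test at -4.31 without other markers and -3.31 over libraries (-4.01 to -2.53 with 1 embryo left out, called without Eed-cKO embryo 6). Neither transporter, at 0.218 and not called, turned to -0.880, -0.161, -1.29 and -0.436 with 2 *Barhl* UMIs, 5 neuronal genes, doublet scores and without other markers (-0.917 to 1.99 with 1 embryo left out). Over libraries, 1 of 6 marker shares was called, *Nts* (8.01). Uncalled marker changes turned sign for the shares with *Irx6* (0.245 thinned, 0.521 with 2 UMIs) and *Adcyap1* (-1.23 over libraries, -0.337 to 3.16 with 1 embryo left out), and on the log2 scale for *Irx6* (0.19 with 5 neuronal genes, 0.34 thinned, 0.0087 by doublet scores, 0.16 without other markers, 0.044 without embryos 3 and 5, and -0.23 to 0.077 with 1 embryo left out), *Adcyap1* (-0.072 over libraries) and *Eed* (0.094 thinned).

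Of 845 values of named genes between genotypes, 731 kept direction and side of the threshold, 106 lost the call, 1 gained it and 7 turned. Against the other neurons 1 of 216 values in control lost its call (*Tac1*, DESeq2) and 0 of 214 in Eed-cKO did, and 14 of 120 interaction values did. Except for fewer genes tested and fewer UMIs under filters and thinning, the causes were not tested. The depth, with 9 members in Eed-cKO embryo 9, limits statements on weakly expressed genes.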

Other observations

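Chromosome 7 carries *Eed*. Of 12847 tested genes with a position in mm10, 971 (7.56%) lay on it, as did 33 of the 399 genes called between genotypes (8.27%). Among the 40 genes whose embryos do not overlap it was 8 (20%): *Hddc3* and *Fosb*, which were higher in the Barhl neurons of Eed-cKO embryos, and *Arl6ip1*, *Fam103a1*, *Myo7a*, *Nell1*, *Rps13* and *Rps15a*, which were lower. Within 30 Mb of *Eed*, a window chosen after the values were seen, lay 2.15% of the tested genes and 15% of those without overlap. All embryos are homozygous for the floxed allele on a mixed B6:129S1 background, and the part of linked strain differences in these values was not tested.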
